A study of Mus musculus with 4 samples.

Results

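Bmp4 and Nog encode a secreted signal and the secreted protein that blocks it, and nuclear RNA over both loci was read on a tiling array in mouse neural progenitor cells (NPC) and embryonic stem cells (ESC). The loci were taken as the probes, other than controls, whose midpoint lies in chromosome 14: 46990001-47025000 for Bmp4 or chromosome 11: 89150001-89175000 for Nog (mm9). These intervals were set by position and not by signal. They hold 250 probes at Bmp4 and 119 at Nog, 369 of the 48316 on the array. Each probe is 60 bases long. The gene spans used here are 47003001-47010000 for Bmp4 (83 probes) and 89162001-89164000 for Nog (22 probes), which are rounded positions and not exon limits. The rest of each interval forms a flank at lower and a flank at higher coordinates. Probes in fact cover 46997828 to 47020253 at Bmp4 and 89158913 to 89169661 at Nog.

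NPC 1 and NPC 2 are nuclear RNA of 46c cells differentiated with the N2B27 protocol, and ESC 1 and ESC 2 are nuclear RNA of undifferentiated 46c cells grown in supplemented GMEM. 46c is a mouse ESC line with a green fluorescent reporter in the Sox1 gene, so both groups carry that allele and come from 1 line. The labels give neither the day of differentiation nor any sorting of reporter-positive cells. RNA was extracted from a chromatin preparation of nuclei, amplified and labelled without strand, so sense and antisense RNA of a place give the same signal, and the labels name no DNase step. The labels do not say whether the 2 samples of a group are separate cultures, and the spread that the p-values rest on may be technical alone.

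BMP4, the product of Bmp4, is a ligand of the TGF-beta superfamily. It binds type I and type II serine/threonine kinase receptors, whose SMAD effectors switch on targets such as the Id genes. In mouse ESC cultures BMP signalling helps hold cells undifferentiated and opposes neural commitment, and in the embryo BMPs pattern the dorsal neural tube. Noggin, the product of Nog, binds BMP ligands outside the cell and keeps them from their receptors, and in the vertebrate embryo it is known as a neural inducer. No column of the array files names genes, so the receptors, SMADs, Id genes and other antagonists of the pathway were not placed.

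Bmp4 is transcribed towards lower coordinates: its promoter entry in RefSeq lies on the minus strand. The low end of its span is therefore the 3′ end and the high end the 5′ end. The promoter is shown because the change in signal described below differs between the 3′ and 5′ sides of the gene. The entry covers 250 bases before to 50 bases after the annotated start, at chr14:46390620-46390919 on GRCm38.p6, a build other than that of the probes, so it was not placed on the profile. It is written 5′ to 3′ on the minus strand with CG dinucleotides in capitals.
Bmp4 promoter: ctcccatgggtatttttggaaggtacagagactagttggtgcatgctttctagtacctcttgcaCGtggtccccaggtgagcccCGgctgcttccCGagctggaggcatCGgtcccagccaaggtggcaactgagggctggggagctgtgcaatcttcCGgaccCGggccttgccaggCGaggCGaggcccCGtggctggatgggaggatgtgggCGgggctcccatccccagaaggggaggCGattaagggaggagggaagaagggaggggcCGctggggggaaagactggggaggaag
This window holds 12 CG dinucleotides, against a median of 7 in the 32851 promoter windows of the same length, of which 39.6% hold as many or more. Its GC content is 64%, against a median of 52.7%. Of the 2 genes, Bmp4 alone was matched in that table, and the strand of Nog is not used here.

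The labelled cell types were read at marker loci, which were placed by mm9 positions from general knowledge. These markers were chosen with earlier results of these data known, so they describe the samples and are not an independent check of the labels. Each marker was read as the windows of 5 kb over its position. Of the ESC markers, Nanog, Pou5f1 and Klf4 (pluripotency factors) were called lower in NPC in 2 of 2 windows each, with median changes of -1.57, -1.86 and -1.99 on the log2 scale. Of the NPC markers, Npas3 (a neural transcription factor) was called higher in 163 of 166 windows, with a median change of 2.05. Sox2, which both cell types are known to express, was called in 0 of 2 windows, with changes from -0.67 to 0.55. The window of Olig2, a marker of ventral and oligodendrocyte progenitors, was at -0.20 and not called. The share of all probes well above background was 54.1% and 54.3% in NPC 1 and NPC 2, and 42.5% and 44.6% in ESC 1 and ESC 2. Negative control spots passed that limit at 1.36% to 2.42% per array.

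Signal over the Bmp4 gene fell in NPC. The mean level over its 83 probes was -2.72 and -2.47 in NPC 1 and NPC 2, and -0.87 and -1.13 in ESC 1 and ESC 2. Levels are log2 intensity relative to each array's 75th percentile, computed from the 15356 probes that passed the background limit on every array. The groups did not overlap, which is common on this array. Over all its bins of 1 kb, both NPC arrays lay below both ESC arrays in 47.5% and above them in 28.1%. The change was -1.59 (SE 0.17), a 3.01-fold higher signal in ESC, with an adjusted p of 0.00753 in limma after Benjamini-Hochberg adjustment over 961 places of the array. Those places are the 6 regions of the Bmp4 and Nog loci and 955 windows of 5 kb elsewhere, and 29.4% of them were called lower and 22% higher in NPC. A call alone is thus common on this array, but only 1.77% of the places fell further than the Bmp4 gene. The median change over the 961 places was -0.35, and that of Bmp4 lay 1.24 below it.

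The rank of the gene fell as well, and ranks do not depend on the scaling. They do depend on the other places: 166 of the 961 are Npas3 windows, of which 163 were called higher in NPC. A place without change can thus also drop in rank. The Bmp4 gene stood above 70.4% and 83.0% of the 961 places in NPC 1 and NPC 2, and above 95.6% and 94.4% of them in ESC 1 and ESC 2. The median intensity of its probes was 31.9 and 34.5 units in NPC, and 107 and 91.3 units in ESC. Probes well above background numbered 54 and 61 of 83 in NPC 1 and NPC 2, and 74 and 72 in ESC 1 and ESC 2. Signal was therefore reduced in NPC and not absent, since 49 of the probes were well above background on all 4 arrays. In 68 of 83 probes (81.9%) both NPC arrays lay below both ESC arrays, and in 0 they lay above. Over all 47900 probes compared these shares were 39.7% and 24.9%. After scaling, the floor to which low intensities were raised was -6.07 and -6.36 in NPC 1 and NPC 2, and -5.77 and -5.88 in ESC 1 and ESC 2. A probe at the floor on all 4 arrays therefore counts as below without any signal. Of the 83 probes, 5 were well above background on no array. In bulk samples such as these, fewer cells with the RNA and less RNA per cell cannot be told apart.

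The fall reached past the 3′ end of the gene but was smaller past the 5′ end. The low-coordinate flank, on the 3′ side, had levels of -3.93 and -4.08 in NPC 1 and NPC 2, and -2.33 and -2.62 in ESC 1 and ESC 2. Its change was -1.53 (SE 0.16, limma adjusted p = 0.00753), nearly that of the gene. The high-coordinate flank, on the 5′ side, had levels of -4.46 and -4.51 in NPC, and -3.77 and -3.74 in ESC. Its change was -0.73 (SE 0.12, limma adjusted p = 0.0152), 0.38 below the median of all places. The groups did not overlap in either flank. In the 5′ flank 52 of 104 probes were well above background on no array, against 15 of 63 in the 3′ flank. A probe near the floor on all arrays cannot show a large fall, so dim probes limit the mean change that a flank can show. Without dim probes, those under the background limit on at least 1 array of each group, the 5′ flank was at -0.82. The 3′ flank was then at -1.74 and the gene at -1.74.

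Differences between places within an array do not depend on how that array is scaled. The Bmp4 gene exceeded its 3′ flank by 1.22 and 1.61 in NPC 1 and NPC 2, and by 1.45 and 1.49 in ESC 1 and ESC 2, so the groups overlapped and the change was -0.058 (SE 0.20, exact two-sided permutation p = 1). It exceeded its 5′ flank by 1.74 and 2.04 in NPC, and by 2.89 and 2.61 in ESC, a change of -0.86 (SE 0.21). The 3′ flank exceeded the 5′ flank by 0.52 and 0.43 in NPC, and by 1.44 and 1.12 in ESC, a change of -0.80 (SE 0.17). For these last contrasts the exact permutation p was 0.333, the smallest that 2 against 2 arrays allow. Such differences mix amounts of RNA with the properties of different probes, so only their changes between NPC and ESC are read here.

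**Figure D1:**
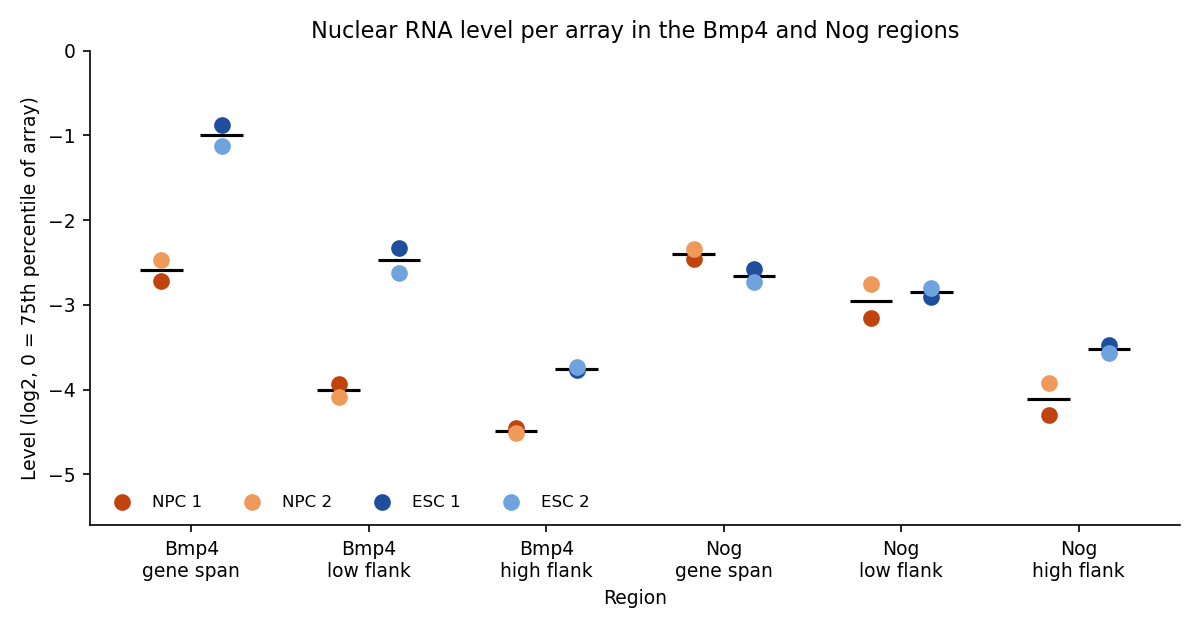
Mean log2 level of the probes in the gene span and flanks of Bmp4 and Nog, with a point for each array and a bar for the mean of 2 arrays (NPC left, ESC right in each pair). The NPC points lie below the ESC points over the Bmp4 gene and both its flanks, with a change of -1.59 over the gene, while the Nog gene shows -2.46 and -2.34 in NPC beside -2.58 and -2.73 in ESC.

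In bins of 1 kb, all 7 bins of the Bmp4 span were called lower in NPC, with changes from -2.17 to -1.03 (limma over 4396 bins). With the replicate number as a block 6 of the 7 were called. Over the whole array 8.83% of bins were called lower and 19.2% higher. The bin of 47003001-47004000, at the 3′ end of the gene, carried the highest level of the locus. Its level was -1.02 and -0.40 in NPC 1 and NPC 2, and 1.42 and 1.25 in ESC 1 and ESC 2. Both NPC arrays lay below both ESC arrays at all 12 of its probes, and the change was -2.04 (SE 0.29, limma adjusted p = 0.00434). All of these probes were well above background in ESC, and 11 of 12 were in each NPC array.

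The largest fall of the span was in the bin of 47005001-47006000. Its level was -4.14 and -3.84 in NPC, and -1.86 and -1.78 in ESC, a change of -2.17 (SE 0.24, limma adjusted p = 0.00203). Here 4 and 5 of 11 probes were well above background in NPC 1 and NPC 2, against 9 in each ESC array, so the NPC level rests in part on values near the floor. The smallest fall was in the bin of 47007001-47008000, at -1.03 (SE 0.30, limma adjusted p = 0.0469), and its call was lost in 7 of 17 alternatives. Among these were the replicate block (limma adjusted p = 0.0894), the fit without NPC 1 (-0.87), and scaling to the median SRN control level of each array (-0.43, limma adjusted p = 0.350). The bins of 47004001-47005000 and 47006001-47007000 changed by -1.38 and -1.27, and those of 47008001-47009000 and 47009001-47010000 by -1.53 and -1.69. NPC and ESC arrays did not overlap in any bin of the span.

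The 3′ flank had 5 of 6 bins called lower, and the remaining bin, with 3 probes, was at -1.46 (adjusted p = 0.127 in limma). The largest fall of the flank adjoined the gene, at 47002001-47003000, with levels of -4.11 and -4.09 in NPC, and -1.77 and -2.27 in ESC, a change of -2.08 (SE 0.26, limma adjusted p = 0.00308). Farther out, the bins of 46999001-47000000 and 47000001-47001000 had the highest levels of the flanks and changed by -1.48 (SE 0.24) and -1.62 (SE 0.26). ESC levels there were -1.82 and -2.07 in the first of these bins and -1.23 and -1.67 in the next, against NPC levels of -3.32 and -3.54, and -3.03 and -3.11. Probes well above background in both ESC arrays thus reached at least to 46999001 past the nominal 3′ end. Whether this is one transcript with Bmp4 cannot be read from signal without strand.

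Past the 5′ end, 1 of 11 bins was called lower, at 47011001-47012000 with -1.23 (SE 0.24, limma adjusted p = 0.0118), and it is named here for that call. All 11 changes were below 0, from -1.23 to -0.32 with a median of -0.67, beside a median of -0.27 over all bins of the array. The scaled floor was lower in NPC than in ESC, so dim bins can fall without signal. The bin of 47015001-47016000, named here for this, had 0 probes well above background on each array and was at -0.58. With a common floor the whole 5′ flank was at -0.54 (limma adjusted p = 0.0283). Over the whole locus, both NPC arrays lay below both ESC arrays in 23 of 24 bins, against 47.5% of all bins on the array. Bins near the floor can count as below without signal. The shape of the profile was much alike in both cell types: across the 24 bins the NPC and ESC means correlated at 0.958 (Pearson), beside 0.936 for the NPC pair and 0.967 for the ESC pair. Bins of 1 array share its hybridisation and their probes, so these are descriptions.

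**Figure D2:**
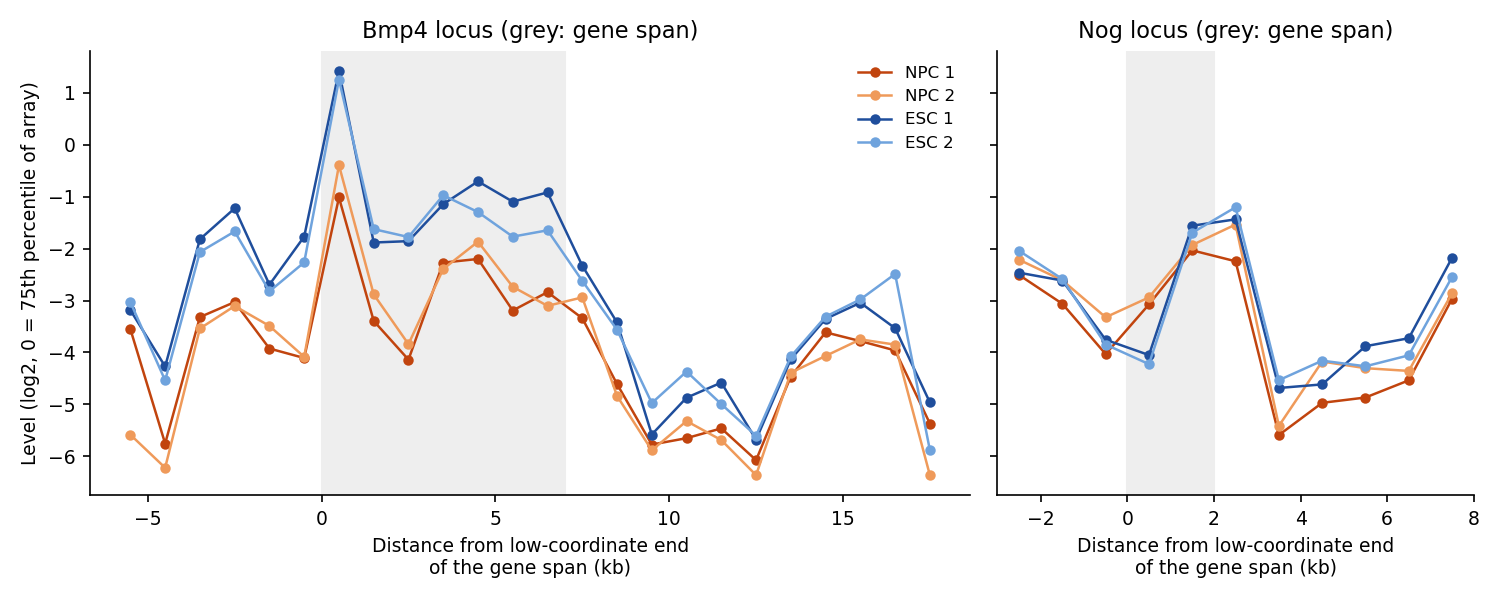
Level in bins of 1 kb along the Bmp4 and Nog loci for each array, as log2 intensity relative to the array's 75th percentile, against distance from the low-coordinate end of the gene span (grey). The NPC arrays run below the ESC arrays across the Bmp4 span and its 3′ side and approach them past the 5′ end, and at Nog the groups lie closer together, with both NPC arrays above both ESC arrays in the first kb of the span.

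Among single probes, 10 of 83 in the Bmp4 gene, 16 of 63 in the 3′ flank and 1 of 104 in the 5′ flank were called lower, and 0 were called higher (limma over 47900 probes). That is 10.8% of the 250 probes of the locus, against 1.58% called lower over the array. At an unadjusted p under 0.05 the lower probes numbered 43, 29 and 17, and the higher ones 0, 0 and 1. The share of all probes at this unadjusted limit was not counted, so these numbers are not read as particular to the locus. The probe with the highest level of the locus, at 47003758-47003817 in the gene, had intensities of 206 and 445 in NPC 1 and NPC 2, and 1232 and 1003 in ESC 1 and ESC 2. Its change was -2.04 (SE 0.55) and did not pass for this probe alone (limma adjusted p = 0.114), except without NPC 2 (0.0306).

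The largest fall of a probe was at 46999468-46999527 in the 3′ flank, with intensities of 5.24 and 2.19 in NPC, and 171 and 147 in ESC. Neither NPC array was well above background there, so the signal was at least 14.3-fold lower in NPC (limma adjusted p = 0.0116). Such bounds set the ESC mean against the lowest signal that counts as well above background on each NPC array. The next, at 47004118-47004177, had 28.1 and 2.19 in NPC, and 189 and 444 in ESC; its NPC arrays lay far apart and it was not called (limma adjusted p = 0.0970). It was called in 5 of 15 alternatives, with normexp (-2.50, limma adjusted p = 0.0447), with the authors' values (-5.61, 0.0201), without dim probes (0.0495) and without either NPC array. The largest rises of the locus, 0.90 at 47004897-47004956 and 0.98 at 47017411-47017470, each rested on 1 NPC array and were not called (limma adjusted p = 0.650 and 0.699).

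**Figure D3:**
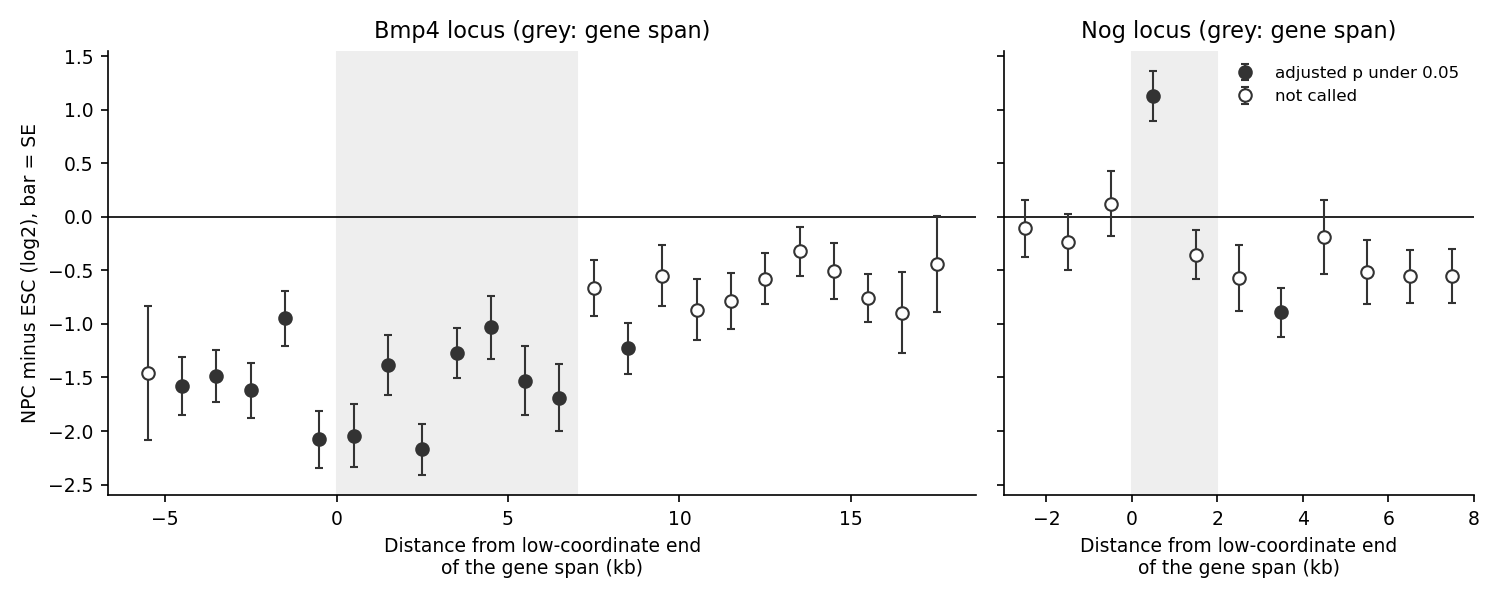
Difference between NPC and ESC (log2, with SE from the limma fit) in each bin of 1 kb, against distance from the low-coordinate end of the gene span (grey), with filled points for bins at an adjusted p under 0.05. At Bmp4, 13 of 24 bins are filled and all of them lie below 0, and at Nog 1 of 11 bins is filled below 0 and 1 above it, at 1.13.

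The Nog gene gave no call. Its mean level over 22 probes was -2.46 and -2.34 in NPC 1 and NPC 2, and -2.58 and -2.73 in ESC 1 and ESC 2. The arrays did not overlap, but the change of 0.25 (SE 0.14) did not pass (limma adjusted p = 0.171), and it was below 0 with the percentile over all probes (-0.13), with normexp (-0.12), with the authors' own values (-0.12) and with dim probes left out (-0.064). When the scale was set by control spots named SRN, it was called higher: 0.54 when each spot's change was taken and the median set to 0 (limma adjusted p = 0.0431), and 0.86 when the median SRN level of each array was (limma adjusted p = 0.00855). The direction of the Nog gene is thus not settled by these arrays. In rank it stood above 75.1% and 85.5% of the 961 places in NPC 1 and NPC 2, and above 82.0% and 79.8% in ESC 1 and ESC 2, so the ranks of the groups overlapped.

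Nog had signal in both cell types. Probes of the gene well above background numbered 15 and 17 of 22 in NPC 1 and NPC 2, and 15 and 14 in ESC 1 and ESC 2, and 13 were so on all 4 arrays. The median intensity of its probes was 35.8 and 38.1 in NPC, and 27.9 and 27.9 in ESC. Both NPC arrays exceeded both ESC arrays at 4 probes (18.2%) and lay below them at 5 (22.7%), against 24.9% and 39.7% of all probes. The share of 39.7% includes probes at the floor on every array, since the scaled floor was lower in NPC.

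The 2 bins of the Nog span differed. The first, 89162001-89163000, had levels of -3.08 and -2.94 in NPC, and -4.05 and -4.22 in ESC, and was called higher in NPC by 1.13 (SE 0.23, limma adjusted p = 0.0151). Of its 9 probes, 4 and 5 were well above background in NPC 1 and NPC 2, against 2 in each ESC array, and at 3 of the 9 both NPC arrays lay above both ESC arrays. The second, 89163001-89164000, had levels of -2.03 and -1.93 in NPC, and -1.56 and -1.70 in ESC, with a change of -0.36 (SE 0.23) that did not pass (limma adjusted p = 0.262). It was called lower under the percentile over all probes (-0.74, limma adjusted p = 0.0397) and with normexp (-0.32, limma adjusted p = 0.0267), and was 0.25 under median SRN levels. Within each array the first bin minus the second was -1.04 and -1.01 in NPC, and -2.49 and -2.53 in ESC, a change of 1.49 (SE 0.025, exact permutation p = 0.333, the smallest possible). That SE describes bin means, and single probes of the first bin differed far more between NPC 1 and NPC 2. The probe at 89162032-89162091 was at 0.67 and -4.74, and that at 89161972-89162031 at -6.07 and -3.39. Such opposite differences partly cancel in the mean. The call of the first bin was lost with normexp, where the change was 0.19 (limma adjusted p = 0.0632), with the authors' values at 0.48 (limma adjusted p = 0.144), with dim probes left out at 1.13 (limma adjusted p = 0.0584), and with ESC 1 or ESC 2 left out, at 1.22 and 1.04 (limma adjusted p = 0.104 and 0.151).

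The largest rises of single probes in that bin were at probes not well above background in ESC. The largest was at 89162032-89162091, with intensities of 300 and 6.75 in NPC 1 and NPC 2, and 2.70 and 3.12 in ESC 1 and ESC 2. The NPC arrays differ there by far more than the ESC arrays, and the probe was not called (limma adjusted p = 0.355), except without NPC 2 (0.00794). The next, at 89162631-89162690, had 16.0 and 66.0 in NPC, and 3.49 and 3.12 in ESC, where it was not well above background; it was at least 1.99-fold higher in NPC and not called (limma adjusted p = 0.105), except without NPC 1 (0.0105) or NPC 2 (0.0430). A further probe of the gene, at 89162241 and named here because it was the only one of the locus called higher (1.79, limma adjusted p = 0.0371), was not well above background on either array of ESC or of NPC. In a further setting, chosen after these values had been seen, the median over the probes of the bin gave 1.75 (limma adjusted p = 0.0139). The same setting left 5 of the 7 Bmp4 bins called: the bin of 47004001-47005000 was then at -0.75 (limma adjusted p = 0.208) and that of 47008001-47009000 at -1.40 (limma adjusted p = 0.0659).

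Around Nog, the low-coordinate flank had levels of -3.15 and -2.75 in NPC, and -2.90 and -2.80 in ESC. The arrays overlapped, and the difference was -0.10 (SE 0.19, limma adjusted p = 0.647). Its brightest bin, 89159001-89160000, was at -0.11 (SE 0.27). The high-coordinate flank had -4.30 and -3.93 in NPC, and -3.47 and -3.57 in ESC, and was called lower by 0.59 on the log2 scale (SE 0.18, limma adjusted p = 0.0494). That call stood in 8 of 22 alternatives and was lost without either ESC array (adjusted p 0.251 and 0.212), and at 0.24 below the median of all places the change was small for this array. Its brightest bin, 89164001-89165000, was at -0.57 (SE 0.31, limma adjusted p = 0.199) and was called under the percentile over all probes (-0.95, 0.0334) and without NPC 2 (-0.92, 0.0285). The bin of 89165001-89166000 was called lower at -0.89 (SE 0.23, limma adjusted p = 0.0348) with 0 and 3 of 13 probes well above background in NPC, and 3 and 5 in ESC. That bin's call was lost in 8 of 16 alternatives, among them the fits without ESC 1 or ESC 2. The brightest probe of the locus, at 89164367-89164426, had intensities of 833 and 1134 in NPC, and 816 and 1076 in ESC, a change of -0.11 (SE 0.34, limma adjusted p = 0.845). Its arrays overlapped.

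Over the Nog locus, 1 of 119 probes was called lower and 1 higher, or 0.840% each, against 1.58% and 10.7% of all probes. Of the 211 places called higher over the array, 163 were Npas3 windows, so the higher share of places leans on that gene. For probes this was not counted. The lower one, at 89165145-89165204 in the high-coordinate flank, had 2.79 and 2.19 in NPC, and 10.2 and 32.1 in ESC, at least 1.63-fold lower in NPC (limma adjusted p = 0.0457). It kept its call in 4 of 14 alternatives and lost it with the replicate block (limma adjusted p = 0.0776). A neighbour at 89164856-89164915 was at least 2.83-fold lower in NPC and was not called (limma adjusted p = 0.0901), but it was called with the replicate block (limma adjusted p = 0.0442), without dim probes (0.0469) and without NPC 2 (0.0242). Across the 11 bins of the locus, NPC and ESC means correlated at 0.899, beside 0.975 for the NPC pair and 0.968 for the ESC pair.

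**Figure D4:**
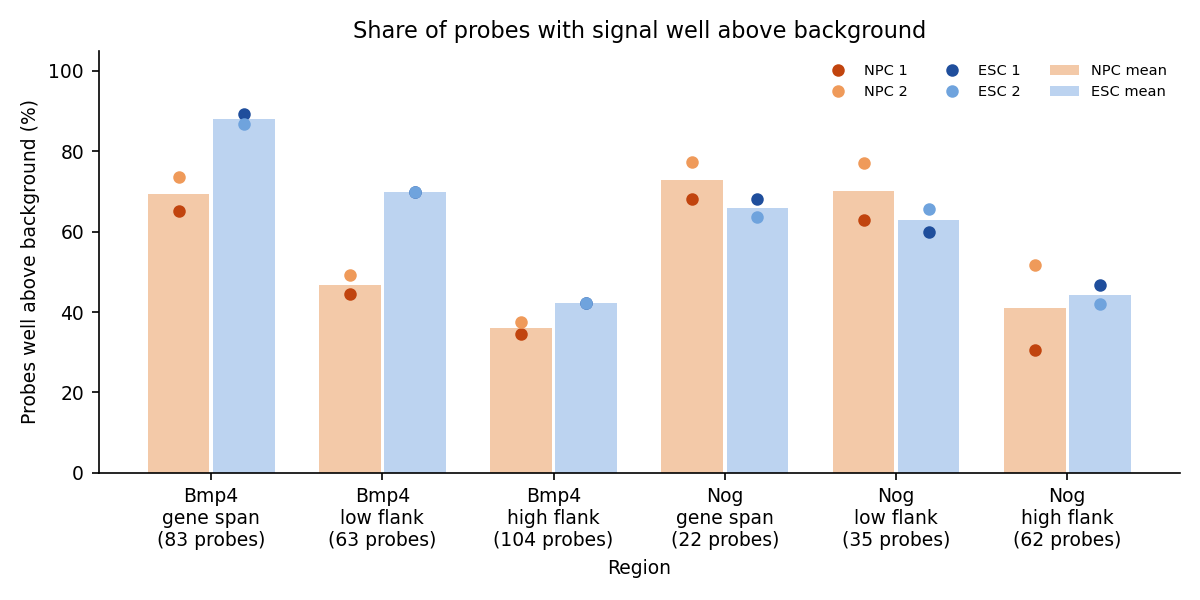
Share of probes well above background in each region, as a bar for the mean of 2 arrays and a point for each array (NPC left, ESC right). The share over the Bmp4 gene was 69.3% in NPC and 88.0% in ESC, and over the Nog gene it was 72.7% in NPC and 65.9% in ESC.

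Set against each other, the 2 genes changed unequally. Within each array the Bmp4 gene minus the Nog gene was -0.26 and -0.12 in NPC 1 and NPC 2, and 1.70 and 1.60 in ESC 1 and ESC 2. The change of this difference was -1.84 (SE 0.083), and the groups lay far apart, but the exact two-sided permutation p of 0.333 is the smallest this design allows. Other scalings, the block and outlier spots kept leave this difference as it is. Over the 11 alternatives that could move it, those that leave out an array included, it ranged from -1.99 to -0.73. These values compare how the genes changed and not how much RNA each makes.

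Set against its own flanks, the Bmp4 gene exceeded the mean of both flanks by 1.54 and 1.88 in NPC, and by 2.35 and 2.19 in ESC. The change of -0.56 (SE 0.16) was called in a limma fit of such local differences over 957 places (adjusted p = 0.0311), of which 16% were called lower and 14.3% higher. It was -0.074 with the median over probes (limma adjusted p = 0.842), and it lost its call without either ESC array (0.257 and 0.124). The Nog gene exceeded its flanks by 1.42 and 1.16 in NPC, and by 0.69 and 0.56 in ESC. Its change of 0.67 (SE 0.15) had an adjusted p of 0.0114 in the same fit, but with normexp it was 0.058 (adjusted p = 0.436), and without ESC 1 or ESC 2 the call was lost (adjusted p = 0.0832 and 0.131).

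The 3 windows of the array most like the Bmp4 gene over the 4 arrays, by root mean square difference of the levels, were chromosome 7: 152045001-152050000 (0.287), chromosome 5: 29610001-29615000 (0.366) and chromosome 11: 102785001-102790000 (0.383). Their changes were -1.89, -1.85 and -1.19. Those most like the Nog gene were chromosome 7: 149760001-149765000 (0.130), chromosome 4: 139335001-139340000 (0.134) and chromosome 5: 28730001-28735000 (0.152). None of these was called, with changes of 0.095, 0.27 and 0.25. The search covered 955 windows, and the measure rests on level as well as change.

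The calls of the Bmp4 gene and flanks were lost without either ESC array. So were those of the Nog high-coordinate flank and of both genes minus their flanks, so this loss is not particular to Bmp4. Without ESC 1 or without ESC 2 the change of the gene was -1.47 and -1.72 but its adjusted p in limma was 0.0712 and 0.0738, and the called bins of the span numbered 2 and 4 instead of 7. The 3′ flank lost its call in the same fits. Without an NPC array both kept it. Across the other 18 alternatives the gene and the 3′ flank stayed lower in NPC and called, the gene from -1.97 to -0.85 and the 3′ flank from -1.93 to -0.54. The values nearest 0 came with normexp, whose added offset draws the changes of dim probes towards 0. The 5′ flank was at -0.12 (limma adjusted p = 0.565) when scaled to the median SRN level of each array, and it too lost its call without ESC 1 or ESC 2 (limma adjusted p = 0.128 and 0.144).

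**Figure D5:**
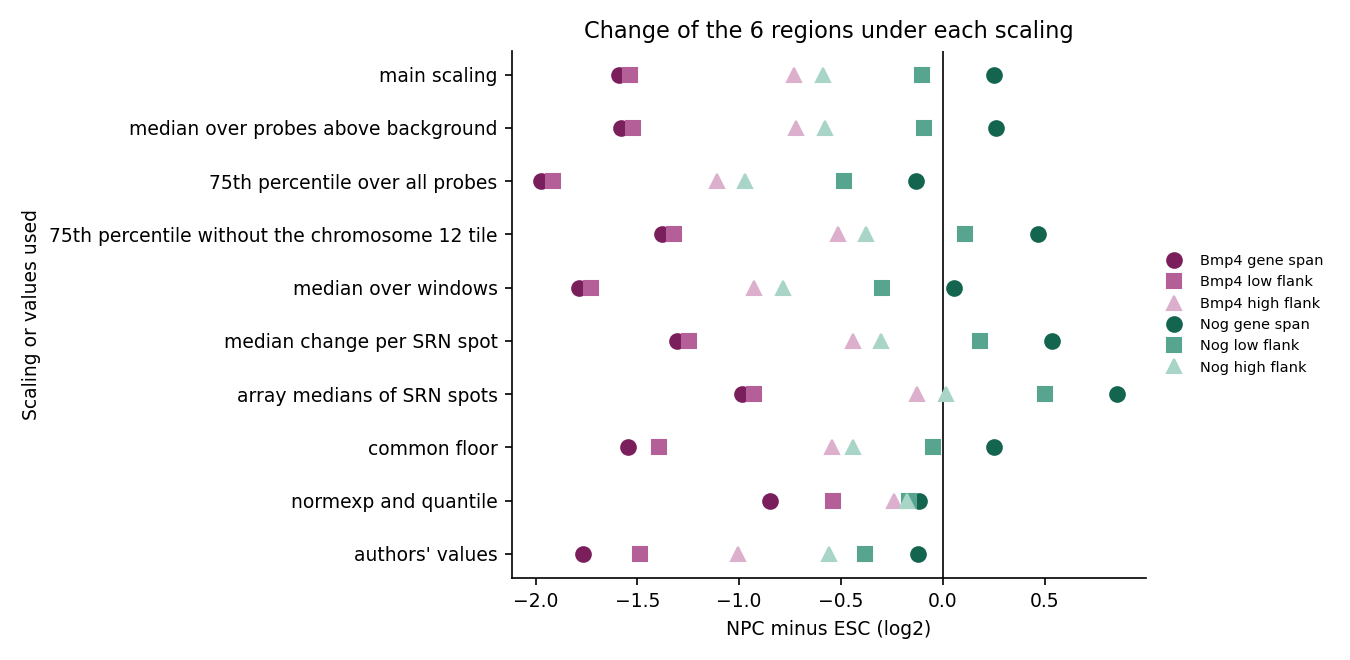
Difference between NPC and ESC (log2) for the 6 regions under the main scaling, 6 other scalings, a common floor, normexp with quantile normalization and the authors' own values. The Bmp4 gene and its low-coordinate flank stay below 0 in every row, from -1.97 to -0.85 for the gene, while the Nog gene lies on both sides of 0, from -0.13 to 0.86.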

How the data were processed

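All 4 arrays carry the same slide number. Each of 4 samples was hybridised to 1 custom tiling array read in 1 colour, with mm9 probe positions, per the file headers. The deposited spot intensity was made by Agilent Feature Extraction 11.5.1.1, which subtracted background and raised low intensity values to a floor of each array, without normalization between arrays, per the file headers. Marks for spots well above background, saturated and outlier spots (unit other) are deposited in the same files. The authors' series table is on a log2 scale, as judged from its values; its normalization is not given in the sources used here, and the submitters' processing notes name limma. In it ESC 1 followed its own scanner file less well (Spearman 0.873 over probes) than the other 3 arrays (1.00 each), so these log2 values of the authors served only as an alternative.

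Here each array's 75th percentile was subtracted from its log2 intensity, taken over probes well above background on all arrays since 48.9% of values were, and the result was averaged over regions, bins of 1 kb (at least 3 probes) and windows of 5 kb (at least 5 probes). NPC minus ESC was fitted with limma 3.58.1 (lmFit, eBayes) in R 4.3.3, with group as the only term and Benjamini-Hochberg adjustment over all places, with calls at an adjusted p under 0.05. Normexp started from the median signal, since the files hold no mean signal. It added an offset of 50 to the intensities, followed by quantile normalization. The offset draws log2 changes of dim probes towards 0, so the sizes of change with normexp are not on the main scale. No outlier or saturated spot lay in the loci. Depth does not apply to arrays: their number limits the precision. The fits were tested on simulated data with planted changes. They recovered 92% of these over regions and windows and 65% over bins, with 10 and 12 false calls. Of the smaller planted changes in bins 36.8% were recovered, so a bin without a call can still hold a change. Over probes, where larger changes were planted, 76% were recovered, with 13 false calls. Members, lists and markers were chosen with earlier results of these data known. Named bins, probes and similar windows followed a fixed rule: bins of the gene spans, the 2 brightest and 2 most changed flank bins, the brightest probe and the 2 largest falls and rises per locus, and the 3 nearest windows. Same-numbered samples did not deviate together (correlation 0.0440 over places), so numbers were not taken as pairs. Figures used matplotlib 3.10.9.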

Additional observations from a re-analysis of the deposited data

How the results depend on the processing

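The direction and call of the Bmp4 gene and its 3′ flank were kept in 20 of 22 alternatives each; the exceptions were the fits without ESC 1 and without ESC 2. With 2 arrays a group, a fit without an array assumes that the lone array varies like the other group. What causes these shifts was not tested. The number of arrays and signal near the floor limit what can be seen: of the Nog gene's probes 3 of 22, and of the Bmp4 5′ flank's 52 of 104, were well above background on no array.

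Scaling. Without the chromosome 12 tile, the Bmp4 5′ flank was at -0.51, the Nog high flank at -0.37 and the Nog low flank at 0.11. Scaling by the change of each SRN control spot gave -0.44, -0.30 and 0.18, and scaling to each array's median SRN level gave -0.12, 0.015 and 0.50; the Nog gene was then 0.54 and 0.86. Under the all-probe percentile the Nog gene was -0.13, with normexp -0.12, with the authors' values -0.12 and with dim probes left out -0.064. The Nog low flank was 0.067 with the gene span narrowed. The Nog high flank lost its call, staying at -0.59, with the replicate block, with outlier spots kept, with the span narrowed and with windows of 2 kb, and it was -0.58 when scaled to the median of probes above background, -0.44 with a common floor, -0.18 with normexp, -0.60 without dim probes and -0.57 by medians of probes.

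The gene minus its flanks lost its call at Bmp4 with the authors' values (-0.55), without dim probes (-0.45), by medians of probes (-0.074) and for a wider span (-0.53). At Nog it did so with normexp (0.058), the authors' values (0.37), without dim probes (0.37), by medians of probes (0.82) and for a narrower span (0.45).

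Counts of bins called lower were 3 in the Bmp4 gene under median SRN levels, 6 with the replicate block and 5 with the added median over the probes of a bin. In the Bmp4 flanks they were 16 under the all-probe percentile, 13 under window medians and 13 with the authors' values. In the Nog locus they were 6 under the all-probe percentile, and 0 with the replicate block, without the chromosome 12 tile, with either SRN scaling, with a common floor and with dim probes left out. No bin of Nog (0) was called higher with normexp, the authors' values or dim probes left out. Probes called lower in the Bmp4 gene numbered 6 with the replicate block, 5 with either SRN scaling, 5 with a common floor, 18 with the authors' values and 20 with dim probes left out, and in its flanks 11 with the replicate block and 11 with normexp. In the Nog locus, 0 probes were lower without the chromosome 12 tile, with either SRN scaling, under window medians and with normexp, and 2 with a common floor; with the replicate block 1 was, but it was the probe at 89164856 and not that at 89165145. Higher ones there numbered 0 with the replicate block, the all-probe percentile, normexp, the authors' values and dim probes left out, and 2 under median SRN levels. The replicate block also ended the calls of the Bmp4 bin of 47007001 and the Nog bin of 89165001, and left 5 instead of 6 lower bins in the Bmp4 flanks. Of the 6 regions, the Nog high flank alone changed its call with the block (limma adjusted p = 0.0564).

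Leaving out 1 array at a time gave -1.72 to -1.47 for the Bmp4 gene, -1.68 to -1.39 for its 3′ flank, -0.75 to -0.70 for its 5′ flank, 0.18 to 0.33 for the Nog gene, -0.31 to 0.10 for the Nog low flank and -0.77 to -0.40 for its high flank. Gene minus flanks ranged from -0.73 to -0.39 at Bmp4 and from 0.53 to 0.80 at Nog. Lower bins numbered 2 to 7 in the Bmp4 gene, 1 to 11 in its flanks and 0 to 2 at Nog, where 0 to 1 were higher. Lower probes numbered 6 to 26, 11 to 33 and 0 to 5, and higher ones 0 to 2, 0 to 2 and 0 to 7.

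Of the named bins and probes, signs turned in the Nog bin of 89159001 (0.11, 0.18 and 0.50 in the order of the first 3 scalings above, from -0.32 to 0.10 with 1 array left out, including 0.039 without NPC 1), in those of 89163001 and 89164001 under median SRN levels (0.25 and 0.035), in the brightest Nog probe (0.11, 0.18 and 0.50 with the same 3 scalings, -0.36 to 0.15 with 1 array left out) and in the Bmp4 probes of 47004897 (-0.14 with the authors' values, -0.77 to 2.56 with 1 array left out) and 47017411 (-0.044 with normexp, -0.74 with the authors' values, -1.22 to 3.17 with 1 array left out).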
